A study of Mus musculus with 27 samples.

Results

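RNA levels on the 3 arrays titled Microglia were compared with those on the 3 arrays titled BM-DC, across 12814 genes. These 6 arrays were chosen by their titles from 27 arrays in 8 groups of C57BL/6 mouse cells, which were assembled to set microglia grown from embryonic stem cells (the lines ESdM 20 and ESdM 22) beside primary cells. The Microglia samples came from brain, with the age given as day 3. The BM-DC samples came from bone marrow, with the age given as day 7, and the letters are read here as bone marrow dendritic cells, which the labels do not spell out. No genetic change or treatment is given for either group, and all cells were washed and lysed in Trizol. Age and source tissue differ between the groups together with the cell type. Nothing in the labels tells whether replicates came from separate animals or cultures. The p-values and standard errors cover only the spread within groups, pooled over all 27 arrays, and that spread is possibly technical. In bulk RNA, fewer cells of a type and less RNA per cell cannot be told apart.

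Microglia are the resident macrophages of the brain, and they depend on the receptor for colony stimulating factor 1. Dendritic cells take up antigen, load its peptides on MHC molecules and show them to T cells, and on maturation they raise costimulatory molecules such as Cd80 and Cd86. MHC class II genes share promoter elements, among them a Y box that holds the letters of a CCAAT box, and their transcription depends on the coactivator Ciita. Interferons act through STAT and IRF proteins, which bind gamma-activated sites and interferon-stimulated response elements in the promoters of their target genes.

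Levels are log2 normalized intensities, on which undetected probes lie near 4.3, and calls needed a limma adjusted p below 0.05 together with a 2-fold difference (1 on the log2 scale). Differences are Microglia minus BM-DC, with standard errors. Where no array of the lower group detected the gene, its fold is given as "at least" and is taken against the lowest detected value on each array. The Microglia arrays detected 15424 to 15903 probes and the BM-DC arrays 15988 to 16606. Before normalization the median intensity was 93.2 to 95.6 on the Microglia arrays and 27.6 to 28.6 on the BM-DC arrays. All BM-DC arrays sat on 1 chip of their own, while the Microglia arrays sat on 2 chips shared with the ESdM lines, so chip and group cannot be told apart. Array pairs within Microglia correlated at r = 0.996 to 0.997 over the genes tested and pairs within BM-DC at r = 0.983 to 0.995, while pairs between the groups correlated at r = 0.828 to 0.845. The library labelled BM-DC 1 correlated with BM-DC 2 and BM-DC 3 at r = 0.983 and 0.986, against 0.995 between those. It stood apart from them in genes of cell division, as given beside those genes, and in others. Among these, Scd1 had levels of 9.43, 7.04 and 7.48 on the BM-DC arrays and Il1b 11.41, 9.07 and 9.42. Of 240 called genes named here 121 had another tested probe, and all the others carried the same call for 65 of them, some for 21 and none for 35. Other probes are given beside only part of these genes, so their absence from a sentence does not mean that they carried the call.

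The comparison called 3499 of the 12814 genes (27.3% of those tested), of which 1909 (14.9%) were higher and 1590 (12.4%) lower on the Microglia arrays, by limma with Benjamini-Hochberg adjustment. The arrays of the groups did not overlap for 8121 genes (63.4%). The falls reached further than the rises: 159 of the genes called lower differed by at least 16-fold, against 45 of those called higher. No Microglia array detected 398 of the genes called lower, and no BM-DC array detected 205 of those called higher. The median difference over all genes tested was 0.02. The shares of 14.9% higher and 12.4% lower apply beside every list count below, and a count near them says nothing particular about a list. Some genes, Mgl2 among them, stand in several lists, so the list counts are not separate results.

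**Figure D1:**
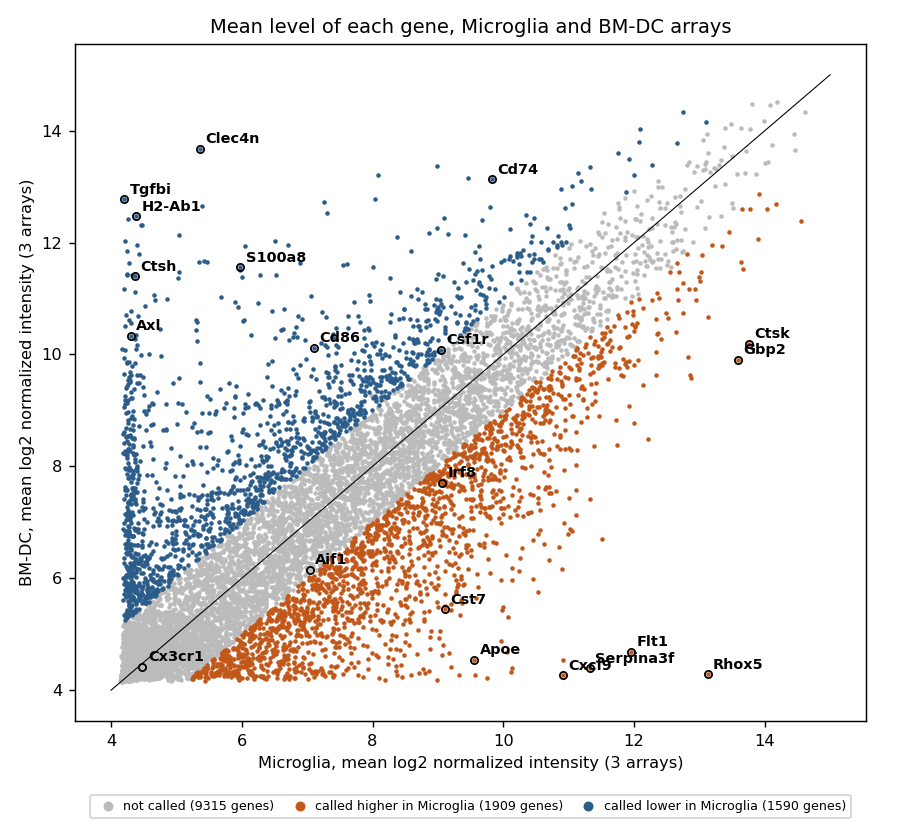
Mean log2 normalized intensity of each of the 12814 genes on the 3 Microglia arrays (horizontal axis) and the 3 BM-DC arrays (vertical axis), with the line of equal level. Orange points were called higher and blue points lower on the Microglia arrays, and grey points were not called. The column of blue points at the left edge holds genes at the level of undetected probes in Microglia, among them Tgfbi, H2-Ab1, Ctsh and Axl.

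Promoters are shown for 2 genes of the interferon response and 2 genes of MHC class II, since 12 interferon response genes were called higher and 11 class II genes lower. The sequences are RefSeq promoters of build GRCm38.p6, from 250 bases before to 50 bases after the start of the gene, given 5′ to 3′ on the strand of the gene. Capitals mark the core of an interferon-stimulated response element (GAAA, any 2 bases and GAAA again) in Gbp2 (chr3:142620413-142620712, plus strand) and Igtp (chr11:58199306-58199605, plus strand). In H2-Aa and H2-Eb1 they mark a CCAAT box, read as ATTGG or its reverse complement. The window of H2-Aa is chr17:34287774-34288073, minus strand, and that of H2-Eb1 is chr17:34305617-34305916, plus strand. Both strands were searched.
Gbp2: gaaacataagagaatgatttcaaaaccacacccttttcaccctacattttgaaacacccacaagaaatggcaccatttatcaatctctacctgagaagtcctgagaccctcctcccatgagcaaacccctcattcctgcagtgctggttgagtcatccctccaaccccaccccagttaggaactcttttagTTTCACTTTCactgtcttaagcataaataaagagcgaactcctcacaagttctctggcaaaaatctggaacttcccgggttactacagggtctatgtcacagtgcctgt
Igtp: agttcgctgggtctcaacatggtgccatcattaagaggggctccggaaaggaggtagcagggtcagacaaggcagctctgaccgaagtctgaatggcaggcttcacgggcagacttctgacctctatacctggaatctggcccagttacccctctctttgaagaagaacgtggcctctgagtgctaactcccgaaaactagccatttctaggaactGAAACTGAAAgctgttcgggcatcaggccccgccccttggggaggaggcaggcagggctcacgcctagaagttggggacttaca
H2-Aa: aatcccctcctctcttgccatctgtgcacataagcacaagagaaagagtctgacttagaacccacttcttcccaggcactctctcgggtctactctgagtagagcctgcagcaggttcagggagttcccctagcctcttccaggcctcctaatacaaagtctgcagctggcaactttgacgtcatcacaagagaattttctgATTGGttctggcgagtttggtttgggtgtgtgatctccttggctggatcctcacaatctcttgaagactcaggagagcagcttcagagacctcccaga
H2-Eb1: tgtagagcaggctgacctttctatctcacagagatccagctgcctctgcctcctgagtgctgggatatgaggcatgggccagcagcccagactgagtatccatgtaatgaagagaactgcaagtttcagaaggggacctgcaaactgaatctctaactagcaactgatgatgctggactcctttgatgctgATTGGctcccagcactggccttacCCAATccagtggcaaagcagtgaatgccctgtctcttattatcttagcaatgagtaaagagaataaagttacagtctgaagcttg
The response element core was found in 3.50% of the promoters of genes called higher, in 4.57% of those of genes called lower and in 3.11% of all 10314 promoters of tested genes. It was found in 7 of the 12 promoters of interferon response genes called higher. The CCAAT box was found in 41.6% of the promoters of genes called higher, in 35.3% of those of genes called lower and in 38.4% of all, and in 6 of the 8 promoters found for MHC class II genes called lower. The letters TTCNNNGAA of a gamma-activated site were in 7.12% of promoters of genes called higher, in 7.06% of those called lower and in 7.00% of all. They were in 6 of the 12 promoters of interferon response genes called higher and in 1 of the 8 of MHC class II genes called lower. The letters GAGGAA, the core bound by PU.1 and related ETS factors, were in 25.6% of promoters of genes called higher, in 30.4% of those called lower and in 27.2% of all. Matches of the response element core and the gamma-activated site overlapped in 9 promoters and those of the core and GAGGAA in 14. The interferon response and MHC class II lists hold genes known for such elements whatever the arrays show. Promoters of list members that were not called were not counted, so the list counts do not bear on the calls. A match describes these windows only and shows no binding.

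MHC class II genes had the largest share of members called lower among the lists with at least 12 tested members: 11 of 15 tested members were called lower on the Microglia arrays and none higher, with a median difference of -2.81. H2-Ab1, the beta chain of the I-A molecule, had levels of 4.55, 4.29 and 4.33 on the Microglia arrays, against 12.13, 12.72 and 12.55 on the BM-DC arrays. It was undetected on every Microglia array and above 12 on every BM-DC array. Its difference was -8.08 ± 0.37, at least 227-fold lower (limma adjusted p = 8.47e-16). H2-Aa, which encodes the alpha chain of I-A and whose promoter is shown above, had levels of 4.43, 4.49 and 4.36 on the Microglia arrays, against 11.54, 11.91 and 11.95 on the BM-DC arrays (difference -7.37 ± 0.50, at least 143-fold lower, adjusted p = 2.41e-12). H2-Eb1, the beta chain of I-E, had levels of 4.42, 4.20 and 4.22 on the Microglia arrays, against 11.26, 11.93 and 11.72 on the BM-DC arrays (difference -7.35 ± 0.36, at least 127-fold lower, adjusted p = 2.41e-15). For these 3 chain genes the groups were far apart. The MF arrays averaged 9.85 for H2-Ab1, 10.38 for H2-Aa and 8.61 for H2-Eb1, so high levels were not particular to BM-DC. ESdM 20 averaged 4.29, 4.19 and 4.29 for the same genes, as low as the Microglia arrays. A further beta chain gene, H2-Eb2, was not called, with levels of 4.58, 4.56 and 4.26 on the Microglia arrays, against 4.79, 5.18 and 4.69 on the BM-DC arrays (difference -0.42 ± 0.15), while another of its probes differed by -1.35 and was called lower where it stood for the gene. The H2 genes resemble each other, and cross-hybridisation between them was not tested.

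The genes that load peptide on class II held further falls. Cd74, the invariant chain that guards the peptide groove, had levels of 9.75, 9.996 and 9.72 on the Microglia arrays, against 13.06, 13.19 and 13.14 on the BM-DC arrays, a difference of -3.31 ± 0.43 (adjusted p = 2.61e-07). It remained well above the level of undetected probes on the Microglia arrays. H2-DMa, H2-DMb1 and H2-DMb2 encode the exchange factor that swaps the invariant chain peptide for antigen, and they differed by -6.19, -4.31 and -5.04. Their modulators H2-Oa and H2-Ob were undetected in Microglia and differed by -2.42 and -2.81. Ctss, the cathepsin that trims the invariant chain, differed by -1.80. Ciita, the class II coactivator, had levels of 4.86, 4.57 and 4.63 on the Microglia arrays, against 6.30, 5.15 and 5.64 on the BM-DC arrays. It was detected on 1 of 3 Microglia arrays and all BM-DC arrays and was called lower with a difference of -1.01 ± 0.18 (adjusted p = 2.95e-05), close to the 2-fold limit. Rfxap and Rfxank, subunits of the RFX complex at class II promoters, were not called, with differences of 0.60 and 0.43. Ifi30, a lysosomal thiol reductase of antigen processing, was also not called (0.38).

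MHC class I moved less, with 3 of 23 tested members higher and 11 lower (median -0.78), beside 14.9% called higher and 12.4% lower over all genes. H2-M2, a nonclassical class I gene, was undetected in Microglia and at least 74.9-fold lower. The proteasome activator subunit Psme2 differed by -3.46 and the immunoproteasome subunit Psmb8 by -2.43, while H2-Q7 and H2-Q6 differed by -2.97 and -2.07. The members called higher were Calr, the chaperone calreticulin (1.70), Nlrc5, the class I coactivator (1.36), and Psme1, the partner subunit of Psme2 (1.33). With no background correction neither coactivator was called, Nlrc5 at 0.93 and Ciita at -0.37, and without BM-DC 1 Ciita differed by -0.71 and lost its call.

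**Figure D2:**
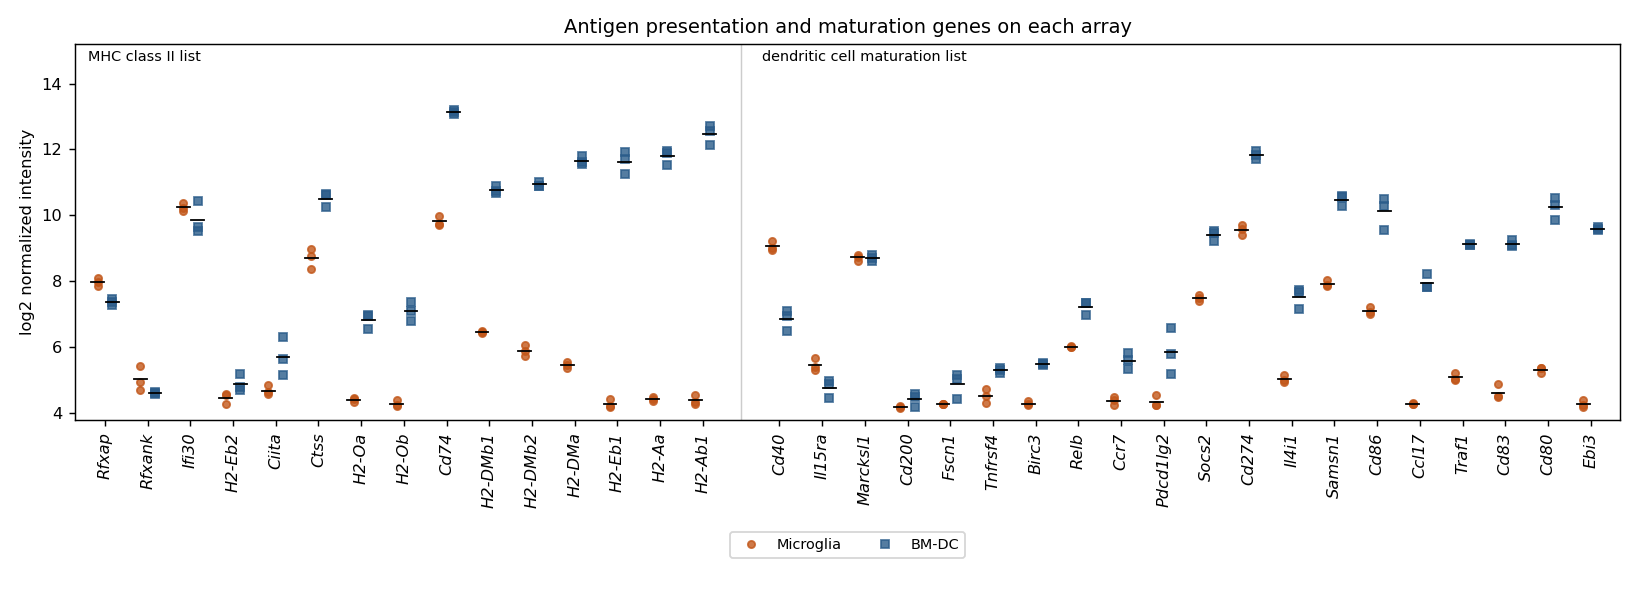
Log2 normalized intensity of the 15 tested MHC class II genes and the 20 tested dendritic cell maturation genes on each Microglia array (orange circles, left of each pair) and each BM-DC array (blue squares), with black lines at the group means. The class II chain genes H2-Ab1, H2-Aa and H2-Eb1 lay near 4.3 on the Microglia arrays and above 11 on the BM-DC arrays, and Cd40 was the maturation gene called higher in Microglia.

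Genes of dendritic cell maturation were lower on the Microglia arrays for 14 of 20 tested members and higher for 1 (median -1.70). Cd80, a ligand of Cd28 on T cells, had levels of 5.37, 5.21 and 5.36 on the Microglia arrays, against 9.87, 10.32 and 10.53 on the BM-DC arrays, a difference of -4.93 ± 0.16 (adjusted p = 8.04e-19), while its other tested probe differed by -0.06. Cd86, the other Cd28 ligand, had levels of 7.07, 7.01 and 7.23 on the Microglia arrays, against 9.56, 10.51 and 10.30 on the BM-DC arrays, a difference of -3.02 ± 0.28 (adjusted p = 1.14e-09). Both costimulators were detected on the Microglia arrays, at levels that did not overlap with BM-DC. Ebi3, a subunit of interleukins 27 and 35, was undetected in Microglia and at least 30.99-fold lower, and Cd83, a surface marker of mature dendritic cells, differed by -4.51 with detection on 1 of 3 Microglia arrays. Ccl17, a T cell attracting chemokine, and Ccr7, the receptor that guides dendritic cells to lymph nodes, were undetected in Microglia and at least 9.95-fold and at least 1.92-fold lower. The signalling adaptor Traf1 differed by -4.02, Samsn1 by -2.55, the amino acid oxidase Il4i1 by -2.46, Cd274, which encodes PD-L1, by -2.27, and the NF-kappaB subunit Relb by -1.20.

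Cd40, the receptor through which T cells license antigen-presenting cells, went against the rest of this list. It had levels of 8.95, 9.23 and 9.02 on the Microglia arrays, against 6.49, 7.10 and 6.95 on the BM-DC arrays, a difference of 2.22 ± 0.17 (adjusted p = 3.58e-11), with every Microglia array above every BM-DC array. In the costimulation list, Tnfsf13b, the B cell survival factor BAFF, was also higher, with levels of 7.53, 7.79 and 7.64 on the Microglia arrays, against 4.98, 4.71 and 4.62 on the BM-DC arrays (difference 2.88 ± 0.17, adjusted p = 1.88e-13). Of that list 2 of 17 tested members were higher and 10 lower. Slamf7, a self-binding receptor of the SLAM family, differed by -3.36 and Lgals9, a galectin, by -2.10. Marcksl1 of the maturation list was near equal on its brightest probe, with levels of 8.73, 8.81 and 8.63 on the Microglia arrays, against 8.80, 8.61 and 8.70 on the BM-DC arrays, while the mean over its probes differed by -1.03. Fscn1, the actin bundling protein fascin of mature dendritic cells, was not called and was detected on 2 of 3 BM-DC arrays (difference -0.60).

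The dendritic cell lineage list tested the label BM-DC, and its defining markers were present in part. Of its 22 tested members 1 was higher and 9 were lower on the Microglia arrays (median -0.40). Flt3, the receptor of the dendritic cell growth factor, had levels of 4.34, 4.87 and 4.44 on the Microglia arrays, against 4.30, 4.28 and 4.25 on the BM-DC arrays, and Zbtb46, a transcription factor of conventional dendritic cells, had levels of 4.73, 4.84 and 4.53 on the Microglia arrays, against 4.56, 4.39 and 4.33 on the BM-DC arrays. Neither was detected on any BM-DC array, and Cd24a, Dpp4 and Btla were likewise undetected there. Itgax, which encodes Cd11c, had levels of 5.87, 6.02 and 6.34 on the Microglia arrays, against 7.05, 7.48 and 7.36 on the BM-DC arrays (difference -1.22 ± 0.13, adjusted p = 8.94e-09), and was detected on all 6 arrays. Irf4, a transcription factor of one branch of dendritic cells, was undetected in Microglia and had levels of 8.07, 7.35 and 7.31 on the BM-DC arrays, at least 7.64-fold lower in Microglia. Id2, an inhibitor of E proteins needed for dendritic cells, differed by -3.84. The lectins Mgl2 and Clec10a differed by -4.06 and -2.84, the aspartic protease Napsa by -2.49 and the lipid-presenting Cd1d1 by -2.36. Irf8, a transcription factor of both dendritic cells and microglia, was the member called higher, with levels of 8.94, 9.42 and 8.83 on the Microglia arrays, against 7.86, 7.51 and 7.77 on the BM-DC arrays (difference 1.35 ± 0.29, adjusted p = 3.02e-04).

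Markers of other cell types were present on the BM-DC arrays beside these genes. In the neutrophil granule list, 15 of 18 tested members were detected on all BM-DC arrays, against 3 on all Microglia arrays. Of the list 9 were called lower in Microglia and 1, Cebpe, higher. With no background correction 5 were called lower. Retnlg, Fcnb and Chil1 were undetected on every BM-DC array, and Elane, Camp and Mpo averaged only 4.96, 4.96 and 5.15 there. The mean of the log2 levels over that list was 4.65 to 4.69 on the Microglia arrays, against 6.07 to 6.31 on the BM-DC arrays. S100a8, a calcium-binding protein abundant in neutrophils, had levels of 5.93, 5.95 and 6.04 on the Microglia arrays, against 11.93, 11.21 and 11.55 on the BM-DC arrays, and its partner S100a9 was undetected in Microglia and at least 32.1-fold lower. Kit, the stem cell factor receptor of mast cells and progenitors, was undetected in Microglia, with levels of 8.57, 9.03 and 9.27 on the BM-DC arrays, while its other tested probe differed by -0.70. The mast cell, basophil and eosinophil list had 5 of 10 tested members detected on all BM-DC arrays and 1 on all Microglia arrays, and the mean of its log2 levels was 4.36 to 4.41 in Microglia, against 5.17 to 5.44 in BM-DC. Kit is 1 of the 10, and without it the mean was 4.37 to 4.43 in Microglia, against 4.79 to 5.04 in BM-DC. The defining genes Cma1, Epx and Prss34 were undetected on all 6 arrays. The part of such cells in the falls was not tested.

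The microglia core list tested the label Microglia, and the data went against it in part: 2 of 22 tested members were called higher on the Microglia arrays and 6 lower (median -0.17). Cx3cr1, the fractalkine receptor, had levels of 4.39, 4.43 and 4.62 on the Microglia arrays, against 4.51, 4.34 and 4.41 on the BM-DC arrays. Tmem119, a surface marker of microglia, had levels of 4.56, 4.43 and 4.50 on the Microglia arrays, against 4.40, 4.44 and 4.62 on the BM-DC arrays, and P2ry12, the ADP receptor of resting microglia, had levels of 4.18, 4.32 and 4.34 on the Microglia arrays, against 5.12, 4.43 and 4.98 on the BM-DC arrays. None of these was detected on a Microglia array, and Olfml3, Sparc, Siglech, Fcrls and P2ry13 were not either. Several of their probes gave clear signal elsewhere. The astrocyte arrays averaged 9.44 for Cx3cr1, 8.11 for Olfml3, 12.62 for Sparc and 12.34 for Fcrls. The same arrays averaged 6.07 for Tmem119, 5.02 for P2ry12 and 4.34 for Siglech, so no strong signal of these probes was seen there. Fcrls, an Fc receptor-like gene used as a microglia marker, had levels of 4.20, 4.22 and 4.39 on the Microglia arrays, against 9.78, 9.46 and 9.40 on the BM-DC arrays, at least 29.98-fold lower on the Microglia arrays. P2ry13, another ADP receptor, was at least 10.3-fold lower. It averaged 8.00 on the BM-DC arrays and 6.90 on the MF arrays, where P2ry12 averaged 5.67. The Microglia arrays are therefore named here by their title.

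General genes of microglia and macrophages were detected on the Microglia arrays, and several were lower. Csf1r, the receptor for colony stimulating factor 1, had levels of 8.69, 9.33 and 9.10 on the Microglia arrays, against 9.93, 10.13 and 10.18 on the BM-DC arrays (difference -1.04 ± 0.43, adjusted p = 0.0452), so close to the 2-fold limit that 12 of 20 alternative settings lost the call. Itgam, which encodes Cd11b, had levels of 5.36, 5.49 and 4.85 on the Microglia arrays, against 8.13, 8.01 and 8.16 on the BM-DC arrays (difference -2.87 ± 0.25, adjusted p = 2.05e-10). Trem2, a lipid-sensing receptor, was not called, with levels of 10.48, 10.42 and 10.27 on the Microglia arrays, against 10.95, 10.92 and 10.91 on the BM-DC arrays. Aif1, which encodes the marker Iba1, was not called either, with levels of 6.83, 7.18 and 7.12 on the Microglia arrays, against 6.71, 5.89 and 5.85 on the BM-DC arrays, which did not overlap but stayed under the 2-fold limit. Mef2c, a transcription factor of microglia, and Golm1, a Golgi protein, were the core members called higher, with differences of 2.79 ± 0.32 and 1.88 ± 0.15 (adjusted p = 4.11e-08 and 8.84e-11). Sall1, the microglial zinc finger factor, had levels of 5.35, 5.49 and 5.53 on the Microglia arrays, against 5.01, 4.90 and 5.002 on the BM-DC arrays and was not called. Of the macrophage lineage list, 9 of 21 tested members were lower and none higher (median -0.73). Cd93, a receptor linked to uptake of dying cells, differed by -6.41, Ms4a7 by -5.15, the lipopolysaccharide coreceptor Cd14 by -2.73 and lysozyme Lyz2 by -1.94. Adgre1, which encodes F4/80, and Fcgr1, the high-affinity IgG receptor, were detected on all 6 arrays and not called (-0.48 and -0.10).

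**Figure D3:**
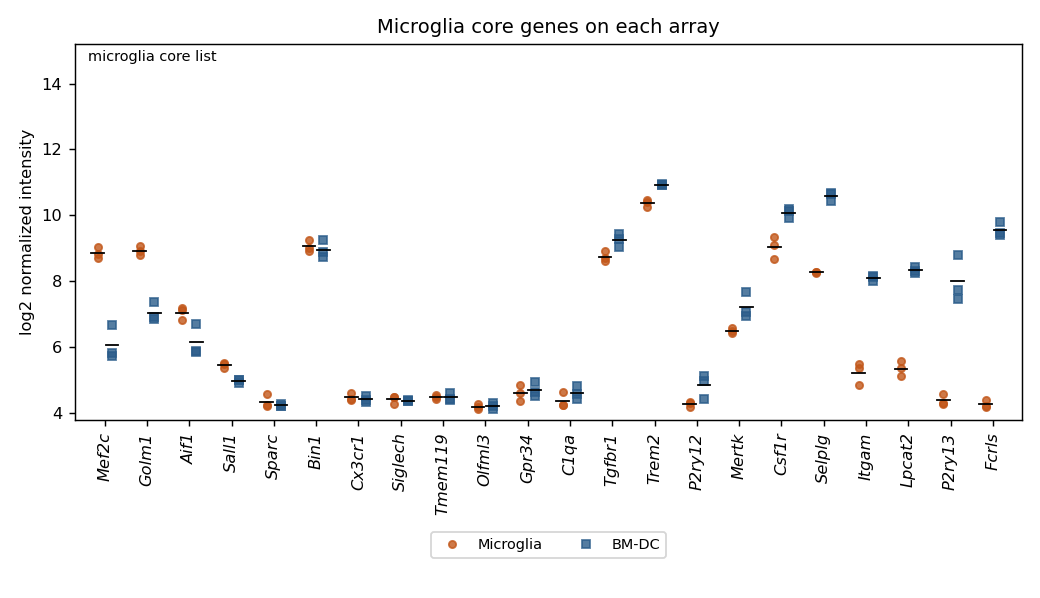
Log2 normalized intensity of the 22 tested microglia core genes on each Microglia array (orange circles, left of each pair) and each BM-DC array (blue squares), with black lines at the group means. Genes run from the largest rise (Mef2c) to the largest fall (Fcrls) on the Microglia arrays, and several in the middle, Cx3cr1 and Tmem119 among them, lay at the level of undetected probes in both groups.

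Astrocyte and neuron markers were checked for RNA of other brain cells on the Microglia arrays. Gfap, Aqp4, Slc1a3 and Sox9 of the astrocyte list were undetected on every Microglia array, and 2 of 14 tested members were higher and 1 lower. The members called higher were Aldoc (1.44, other tested probe -0.55), an aldolase, and Slc1a2 (1.003, other tested probes -0.20 to 0.36), a glutamate transporter. Of the neuron list 2 of 17 tested members were higher, Eno2 (2.44) and Uchl1 (1.77), and 12 members were detected on no Microglia array, the doublecortin gene Dcx and the splicing factor gene Rbfox3 among them. Ina, Elavl4 and Syn1 were detected on all Microglia arrays and not called, and Syn1 had levels of 8.13, 8.13 and 8.23 on the Microglia arrays, against 7.23, 7.51 and 7.36 on the BM-DC arrays. The other tested probes of Elavl4 and Syn1 differed by -0.86 and -0.59. The mean of the log2 levels over the neuron list was 5.12 to 5.15 on the Microglia arrays, against 4.66 to 4.78 on the BM-DC arrays. The stem cell line ESdM 20 averaged 8.57 for Eno2, 8.67 for Uchl1, 6.12 for Ina, 6.07 for Elavl4 and 8.70 for Syn1. It averaged 6.11 for Slc1a2 and 9.97 for Aldoc. Which cells gave this RNA on the Microglia arrays was not tested.

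The largest rise on the Microglia arrays was that of Rhox5, an X-linked homeobox gene of the reproductive tract. Its levels were 13.22, 13.09 and 13.06 on the Microglia arrays, against 4.26, 4.33 and 4.27 on the BM-DC arrays, at least 368-fold higher (difference 8.84 ± 0.13, adjusted p = 8.29e-26). Flt1, a receptor of vascular endothelial growth factor, had levels of 11.96, 11.98 and 11.91 on the Microglia arrays, against 4.86, 4.50 and 4.72 on the BM-DC arrays (difference 7.26 ± 0.17, adjusted p = 1.44e-21). Its other tested probe differed by only 0.50. Serpina3f, a protease inhibitor of a family with near-identical members, had levels of 11.30, 11.44 and 11.24 on the Microglia arrays, against 4.51, 4.33 and 4.33 on the BM-DC arrays and was at least 106-fold higher. Amhr2, the receptor of anti-Müllerian hormone, was at least 46.3-fold higher, and Cpe, the prohormone processing enzyme carboxypeptidase E, was at least 45.9-fold higher. Apoe, a lipid carrier, had levels of 9.57, 9.59 and 9.52 on the Microglia arrays, against 4.62, 4.66 and 4.36 on the BM-DC arrays (difference 5.01 ± 0.29, adjusted p = 8.41e-14). Further down this order came Septin3, Arhgap44, Tmem176b, Ddah1, Cadm1, Sult4a1, Slco4a1, Scara3, Rasgrp3, H2bc21, Them6, Tdrkh and Cdca7, with differences between 6.38 (Septin3) and 4.54 (Cdca7). Rhox5, Flt1 and Amhr2 were also bright in ESdM 20, where they averaged 13.14, 11.54 and 10.23. Serpina3f averaged 4.41 there, at the level of undetected probes.

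Of the Hox clusters, the homeobox genes that pattern the body axis, 3 of 14 tested members were higher and none lower. Hoxc6 had levels of 8.35, 8.43 and 8.57 on the Microglia arrays, against 4.20, 4.28 and 4.22 on the BM-DC arrays and was at least 14.5-fold higher (adjusted p = 1.99e-19). Hoxa5 was at least 7.10-fold higher, and Hoxa7 differed by 1.24. The MF arrays averaged 4.20 for Hoxc6, at the level of undetected probes, and ESdM 20 averaged 8.35.

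The largest falls were those of Tgfbi, a secreted matrix protein induced by TGF-beta, and Clec4n, which encodes the fungal receptor dectin-2. Tgfbi had levels of 4.18, 4.26 and 4.17 on the Microglia arrays, against 12.998, 12.61 and 12.72 on the BM-DC arrays and was at least 281-fold lower (difference -8.57 ± 0.30, adjusted p = 2.36e-18). Clec4n had levels of 5.46, 5.43 and 5.19 on the Microglia arrays, against 13.69, 13.75 and 13.60 on the BM-DC arrays (difference -8.32 ± 0.31, adjusted p = 1.18e-17). Clec4n was detected on the Microglia arrays, and Tgfbi was not. Ctsh, a cathepsin, was at least 108-fold lower, Fpr2, a formyl peptide receptor, at least 70.6-fold lower, and the neutrophil attracting chemokine Cxcl2 at least 66.7-fold lower, all undetected on the Microglia arrays. Mmp12, macrophage elastase, differed by -7.26 and Pygl, a glycogen phosphorylase, by -7.09. The mucin-like Pdpn, the UDP-sugar receptor P2ry14, the protease inhibitors Serpinb2 and Spint1 and the chemokine Ccl6 differed by -7.86, -7.84, -7.80, -7.60 and -7.56. Cstdc4 and Csta2 belong to the stefin inhibitors of cathepsins, Klk1b1 to the kallikreins and Bcl2a1d to the Bcl2 family. These come from tandem copies with similar sequences, and they differed by -8.17, -6.96, -7.18 and -7.10. Cross-hybridisation between the copies was not tested.

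Genes of cell division were higher on the Microglia arrays for 21 of 26 tested members of the cell cycle list and lower for none, with a median difference of 2.57, beside 14.9% called higher over all genes. Uhrf1, which maintains DNA methylation at replication, had levels of 11.11, 11.01 and 11.02 on the Microglia arrays, against 8.43, 5.74 and 6.38 on the BM-DC arrays (difference 4.20 ± 0.41, adjusted p = 1.77e-09). Cdc20, an activator of the anaphase-promoting complex, had levels of 10.12, 10.13 and 10.14 on the Microglia arrays, against 7.16, 5.13 and 5.61 on the BM-DC arrays (difference 4.17 ± 0.38, adjusted p = 6.27e-10). BM-DC 1 was the highest BM-DC array for all 21 genes called higher, and every Microglia array lay above it for all 21. The groups did not overlap for 63.4% of all genes and 3496 of the 3499 called ones, so the separation adds little to the call. Aurka and Bub1b, kinases of mitosis, differed by 4.11 and 4.01, and Mcm7, a subunit of the replicative helicase, by 3.85. Without BM-DC 1 the count was again 21. Pcna and Cenpa were not called (0.74 and 0.53), and Ccna2, Ube2c and Gmnn were undetected on all 6 arrays.

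Regulators of the cell cycle had 4 of 22 tested members higher and 8 lower, beside 14.9% called higher and 12.4% lower over all genes. The cyclins Ccne2 and Ccnd1 differed by 2.08 and 1.58, the inhibitor Cdkn2c by 1.27 and the kinase Cdk4 by 1.09. The growth arrest genes Gadd45a and Gadd45b were lower, with differences of -2.96 and -2.000, as were Btg1 (-1.91), cyclin Ccnd2 (-1.79) and the inhibitor Cdkn1c (-1.75).

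**Figure D4:**
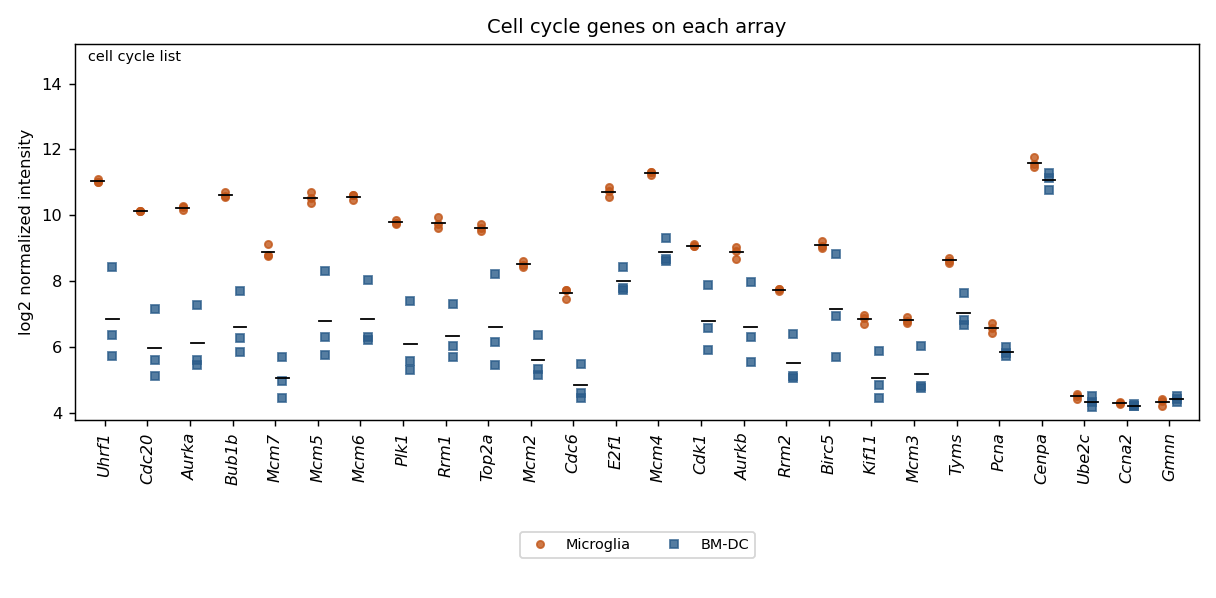
Log2 normalized intensity of the 26 tested cell cycle genes on each Microglia array (orange circles, left of each pair) and each BM-DC array (blue squares), with black lines at the group means. For all 21 genes called higher every Microglia array lay above every BM-DC array, and the groups did not overlap for 3496 of all 3499 called genes. BM-DC 1 gave the top blue square for each of the 21.

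Genes of the interferon response were called higher more often than all genes (14.9%). Of 31 tested members 12 were higher and 4 lower (median 0.44). Cxcl9, the chemokine induced by interferon gamma, had levels of 10.84, 11.005 and 10.89 on the Microglia arrays, against 4.24, 4.29 and 4.26 on the BM-DC arrays, at least 79.5-fold higher (difference 6.65 ± 0.15, adjusted p = 2.51e-22). Gbp2, a guanylate binding protein whose promoter is shown above, had levels of 13.49, 13.71 and 13.55 on the Microglia arrays, against 9.87, 10.03 and 9.83 on the BM-DC arrays (difference 3.68 ± 0.16, adjusted p = 2.49e-16). Igtp, an immunity-related GTPase whose promoter is also shown, had levels of 10.50, 10.82 and 10.61 on the Microglia arrays, against 7.77, 7.63 and 7.42 on the BM-DC arrays (difference 3.04 ± 0.19, adjusted p = 4.36e-13). These genes were bright on all Microglia arrays, and the groups did not overlap. Cxcl10 had levels of 9.20, 9.47 and 9.10 on the Microglia arrays, against 7.28, 5.78 and 5.76 on the BM-DC arrays, with BM-DC 1 above the other BM-DC arrays, and differed by 2.99 ± 0.23 (adjusted p = 2.47e-11). Oasl1, Ifit2, Gbp3, Gbp5, Irgm2, Irf1, Eif2ak2 and Oasl2 made up the rest of the rises, with differences between 4.51 (Oasl1) and 1.06 (Oasl2). ESdM 20 averaged 4.38 for Cxcl9, 5.11 for Gbp2 and 5.88 for Igtp.

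The share of the same list called lower was close to the 12.4% called lower over all genes. Rsad2, the antiviral protein viperin, had levels of 5.45, 5.52 and 5.55 on the Microglia arrays, against 9.20, 9.37 and 9.07 on the BM-DC arrays (difference -3.70 ± 0.32, adjusted p = 2.11e-10). The RNA sensor Ddx58 differed by -2.31, the STAT partner Irf9 by -1.77 and the RNA-activated synthetase Oas2 by -1.69. Isg15, a ubiquitin-like protein, and Stat2 were not called, with differences of 0.36 and 0.13, and Irf7, Mx2 and Usp18 were not called either. Guanylate binding proteins resemble each other, and cross-hybridisation among them was not tested. The interferon gamma receptor chains Ifngr1 and Ifngr2 were lower, with differences of -2.97 and -1.54.

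Growth factor and cytokine receptors were lower for 17 of 28 tested members and higher for 2 (median -1.53), Flt1 being the larger rise and Il6ra, the interleukin 6 receptor, the other (1.07). The mean over all probes of Il6ra differed by -0.20 instead. Il1r2, the decoy receptor of interleukin 1, had levels of 4.22, 4.26 and 4.17 on the Microglia arrays, against 10.48, 10.50 and 10.54 on the BM-DC arrays, at least 58.4-fold lower (difference -6.29 ± 0.20, adjusted p = 4.32e-19). Csf2ra and Csf2rb, the chains of the GM-CSF receptor, differed by -2.84 and -3.001, and Csf3r, the G-CSF receptor, was undetected in Microglia and at least 6.18-fold lower. The interleukin 10 receptor chains Il10ra and Il10rb differed by -2.92 and -2.67, and the interleukin 7 receptor Il7r by -2.46. Of the JAK, STAT and SOCS genes, which carry and limit the signals of these receptors, 8 of 20 were lower and 1 higher. Cish, a feedback inhibitor induced by STAT5, differed by -3.28 ± 0.27 (adjusted p = 7.99e-11), and Socs2, Socs3 and Jak2 differed by -1.90, -1.89 and -1.77, while Socs5 was higher (1.27).

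Transcription factors of myeloid cells were lower for 15 of 34 tested members and higher for 3 (median -0.75). Spi1, which encodes PU.1, had levels of 6.56, 6.70 and 6.68 on the Microglia arrays, against 7.93, 7.99 and 7.86 on the BM-DC arrays (difference -1.28 ± 0.19, adjusted p = 2.26e-06). Egr1, an immediate early factor, had levels of 5.06, 4.95 and 5.08 on the Microglia arrays, against 12.23, 10.69 and 11.15 on the BM-DC arrays (difference -6.33 ± 0.40, adjusted p = 5.76e-13). Both were detected on all 6 arrays, and no Microglia array reached the BM-DC levels. Batf and Pparg were undetected in Microglia and at least 7.47-fold and at least 5.98-fold lower, Egr2 differed by -3.82 and Klf4 by -2.51. Cebpe, a factor of late granulocyte development, was higher, with levels of 8.95, 8.63 and 8.78 on the Microglia arrays, against 5.50, 5.17 and 5.02 on the BM-DC arrays (difference 3.56 ± 0.12, adjusted p = 1.36e-18), although 9 of the 18 granule genes above were lower. Ikzf1, Runx1, Cebpb and Irf5 were not called (0.06, -0.33, -0.41 and -0.65). Immediate early and stress genes were lower for 10 of 20 tested members, Fosb (-5.23), Dusp1 (-3.56) and Fos (-2.89) among them, and higher for Hspa8 (1.67) and Dusp2 (1.35).

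Members of the lists of C-type lectins, toll-like receptors and inflammasome genes were lower or not called. Of the C-type lectin receptors 12 of 20 tested members were lower, of the toll-like receptors and adaptors 10 of 23, and of the inflammasome list 10 of 17, with none higher in these lists, beside 12.4% called lower over all genes. Clec7a, the beta-glucan receptor dectin-1, had levels of 6.43, 6.87 and 6.80 on the Microglia arrays, against 11.64, 12.04 and 12.18 on the BM-DC arrays (difference -5.25 ± 0.27, adjusted p = 7.31e-15). Clec4b1 was undetected in Microglia and at least 36.9-fold lower, and Clec4e, the receptor mincle, differed by -4.68. Ly96, which joins toll-like receptor 4, differed by -2.72, and Tlr6 by -2.65. Il1b, interleukin 1 beta, had levels of 4.72, 4.49 and 5.08 on the Microglia arrays, against 11.41, 9.07 and 9.42 on the BM-DC arrays (difference -5.21 ± 0.42, adjusted p = 6.47e-11), with detection on 2 of 3 Microglia arrays. Pycard, the inflammasome adaptor ASC, was undetected in Microglia and at least 7.20-fold lower (other tested probe -0.22). The antagonist Il1rn differed by -3.79 and Il18 by -2.16. Of the Fc receptors and their adaptors 13 of 24 were lower and 1 higher, the rise being that of Fcgr4 (1.42). Sirpb1a (-6.30), Trem1 (at least 23.9-fold lower), Cd300lf (-3.10) and the inhibitory Fcgr2b (-2.99) were among the falls.

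Among chemokines 3 of 22 tested members were higher and 12 lower. Beside Cxcl9 and Cxcl10 the rise was that of Ccl5, a T cell attracting chemokine, with levels of 10.79, 11.49 and 11.05 on the Microglia arrays, against 6.76, 8.29 and 7.67 on the BM-DC arrays (difference 3.54 ± 0.23, adjusted p = 1.08e-12). Ccl7 and Ccl9 differed by -4.58 and -4.37, and Cxcl16 was undetected in Microglia and at least 14.9-fold lower. Chemotactic receptors were lower for 6 of 14, with the leukotriene B4 receptor Ltb4r1 at 4.82, 5.01 and 4.75 on the Microglia arrays, against 11.39, 10.77 and 10.80 on the BM-DC arrays (difference -6.13 ± 0.14, adjusted p = 3.81e-22). The eicosanoid list showed 7 of 13 tested members lower and none higher. Alox5, the lipoxygenase that starts leukotriene synthesis, was undetected in Microglia and at least 15.1-fold lower, and Pla2g7 and Tbxas1, the thromboxane synthase, were at least 27.5-fold and at least 18.2-fold lower. Purinergic receptors and enzymes were lower for 8 of 16, with P2rx5 at least 8.93-fold lower (other tested probe -0.47) and P2ry6 at a difference of -3.47.

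Genes of alternative activation were lower for 10 of 14 tested members and higher for none. Tgm2, transglutaminase 2, had levels of 4.76, 4.56 and 4.91 on the Microglia arrays, against 9.59, 11.01 and 10.75 on the BM-DC arrays (difference -5.71 ± 0.38, adjusted p = 1.76e-12), while its other tested probe differed by -0.08. The chitinase-like gene Chil3 was undetected in Microglia and at least 13.01-fold lower. Mrc1, the mannose receptor, was not called (-0.51). Arg1, the arginase of this list, was not called (-0.26), while its other tested probe differed by -1.35. In the nitric oxide, itaconate and arginine list counted below, Arg2, the mitochondrial arginase, was at least 11.4-fold lower. Ass1 of that list, which regenerates arginine, differed by -2.25.

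Uptake and degradation genes were mixed. The lysosome list had 2 of 30 tested members higher and 14 lower. Ctsk, a collagen degrading cathepsin, had levels of 13.68, 13.91 and 13.68 on the Microglia arrays, against 10.07, 10.25 and 10.27 on the BM-DC arrays (difference 3.56 ± 0.13, adjusted p = 5.29e-18), and the glucosidase Gaa was the other rise (1.62). Ctsk was bright on the Microglia arrays, whereas Ctsh was undetected there. Lamtor4, a subunit of the lysosomal Ragulator complex, was at least 110.5-fold lower. Its probe was detected on every array of the other groups except ESdM 20 and ESdM 22, where it averaged 4.30 and 4.29. Of the scavenger and apoptotic cell receptors 4 of 24 were higher and 7 lower. Axl, a receptor for dying cells, was undetected in Microglia and at least 51.8-fold lower (other tested probe 0.21), while its ligand Gas6 was higher (1.96 ± 0.25, adjusted p = 2.74e-07). Msr1, the class A scavenger receptor, was at least 14.3-fold lower, and the ligand Pros1 at least 16.01-fold lower. In the disease-associated microglia list, 2 of 22 members were higher, Apoe and the cystatin Cst7 with levels of 9.03, 9.22 and 9.08 on the Microglia arrays, against 5.33, 5.69 and 5.33 on the BM-DC arrays, and 11 lower, Cd52 (-3.71) among them.

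Adhesion and matrix genes held more falls than rises, with 11 of 29 tested members of the integrin list and 13 of 25 of the matrix list lower, and 2 and 1 higher. With no background correction 7 of the integrin list were called lower and none higher. Itgb2, the beta chain shared by leukocyte integrins, had levels of 5.35, 5.60 and 5.16 on the Microglia arrays, against 9.66, 10.01 and 9.86 on the BM-DC arrays (difference -4.48 ± 0.28, adjusted p = 3.45e-13). Itgb5 and Itga1 were undetected in Microglia and at least 12.7-fold and at least 12.4-fold lower. The collagenase Mmp13 differed by -5.89, and Thbs1, thrombospondin 1, and Mmp14 were at least 35.7-fold and at least 20.1-fold lower. The rises were the integrin chains Itga3 (at least 2.36-fold) and Itga7 (at least 2.21-fold) and the laminin chain Lamc1 (2.30 on the log2 scale). In TGF-beta signalling 2 of 22 were higher and 6 lower. Smad3, a signal carrier of TGF-beta receptors, was at least 6.33-fold higher, and Skil, an inhibitor of SMAD proteins, and the ligand Tgfb1 differed by -3.81 and -2.17.

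Metabolic lists held rises beside falls, against 14.9% called higher and 12.4% lower over all genes. The metal and antioxidant list lay below that share of rises. Cholesterol synthesis genes were higher for 5 of 17 tested members and lower for 1. Lss, lanosterol synthase, had levels of 9.45, 9.54 and 9.51 on the Microglia arrays, against 7.01, 6.29 and 5.92 on the BM-DC arrays (difference 3.10 ± 0.21, adjusted p = 1.58e-12, other tested probe -0.10), and Fdps and Dhcr7 differed by 2.87 and 2.01. Glycolysis genes were higher for 5 of 19 and lower for 1. Pfkm, a phosphofructokinase, had levels of 9.48, 9.75 and 9.69 on the Microglia arrays, against 7.01, 6.54 and 6.23 on the BM-DC arrays (difference 3.05 ± 0.16, adjusted p = 1.42e-14). Pkm differed by 1.69 (other tested probe 0.17), and the glucose transporter Slc2a3 was at least 2.35-fold lower. Lipid handling was divided, with 4 of 21 higher and 9 lower, the desaturase Scd1 at least 10.1-fold lower and the fatty acid binding protein Fabp5 at a difference of -3.52. In the metal and antioxidant list 3 of 28 were higher, the transferrin receptor Tfrc (3.19) and the metallothioneins Mt2 (2.96) and Mt1 (2.17), and 9 lower, with Gpx3 at least 11.9-fold lower and the haem oxygenase Hmox1 at -2.65.

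The other immune lists held more falls than rises. Cytokines and their antagonists were higher for 1 of 23 tested members, the migration inhibitory factor Mif (1.47), and lower for 8, interleukin 1 alpha (Il1a, -3.66) and the vascular growth factor Vegfa (-2.66) among them. Complement genes were lower for 5 of 19 tested members and higher for none, and C1qc, a chain of the starter molecule C1q, had levels of 5.89, 6.06 and 5.80 on the Microglia arrays, against 8.32, 7.24 and 7.85 on the BM-DC arrays (difference -1.89 ± 0.44, adjusted p = 7.50e-04). Of the Ms4a membrane genes 4 of 7 were lower and none higher, Ms4a6d by -5.51 ± 0.21 (adjusted p = 1.25e-17). In the nitric oxide, itaconate and arginine list 1 of 15 members was higher, ornithine decarboxylase Odc1 (1.52), and 7 were lower.

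The remaining 7 lists of other cell types had 16 of 62 tested members called (25.8%), beside 27.3% of all genes. In the plasmacytoid dendritic cell list 2 of 6 tested members were higher, Pacsin1 (at least 1.99-fold) and the E protein Tcf4 (1.19 on the log2 scale), and 1 was lower, Bst2 (-1.98). In the progenitor and erythroid list 1 of 12 was higher, the homeobox gene Meis1 with levels of 7.46, 7.36 and 7.38 on the Microglia arrays, against 4.91, 4.89 and 4.86 on the BM-DC arrays (difference 2.51 ± 0.26, adjusted p = 5.93e-09, other tested probe 0.20), and 3 were lower, Kit and Tal1 (-2.71) among them. In the T and NK cell list 2 of 16 were lower, Cd28 (-2.46) and Lat (at least 2.08-fold). In the oligodendrocyte list 2 of 6 were lower, Mbp (at least 7.55-fold, other tested probes -0.22 and -0.19) and Mag (-2.03), and none rose in either list. Of the fibroblast, endothelial and mural list 1 of 12 was higher, the matrix gene Fbln1 (at least 2.63-fold), and 2 were lower, Acta2 (-2.20) and Pecam1 (at least 2.15-fold). Of the B cell list 1 of 5 was higher, Blnk (1.04), and of the pluripotency list 1 of 5 was lower, Klf4.

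**Figure D5:**
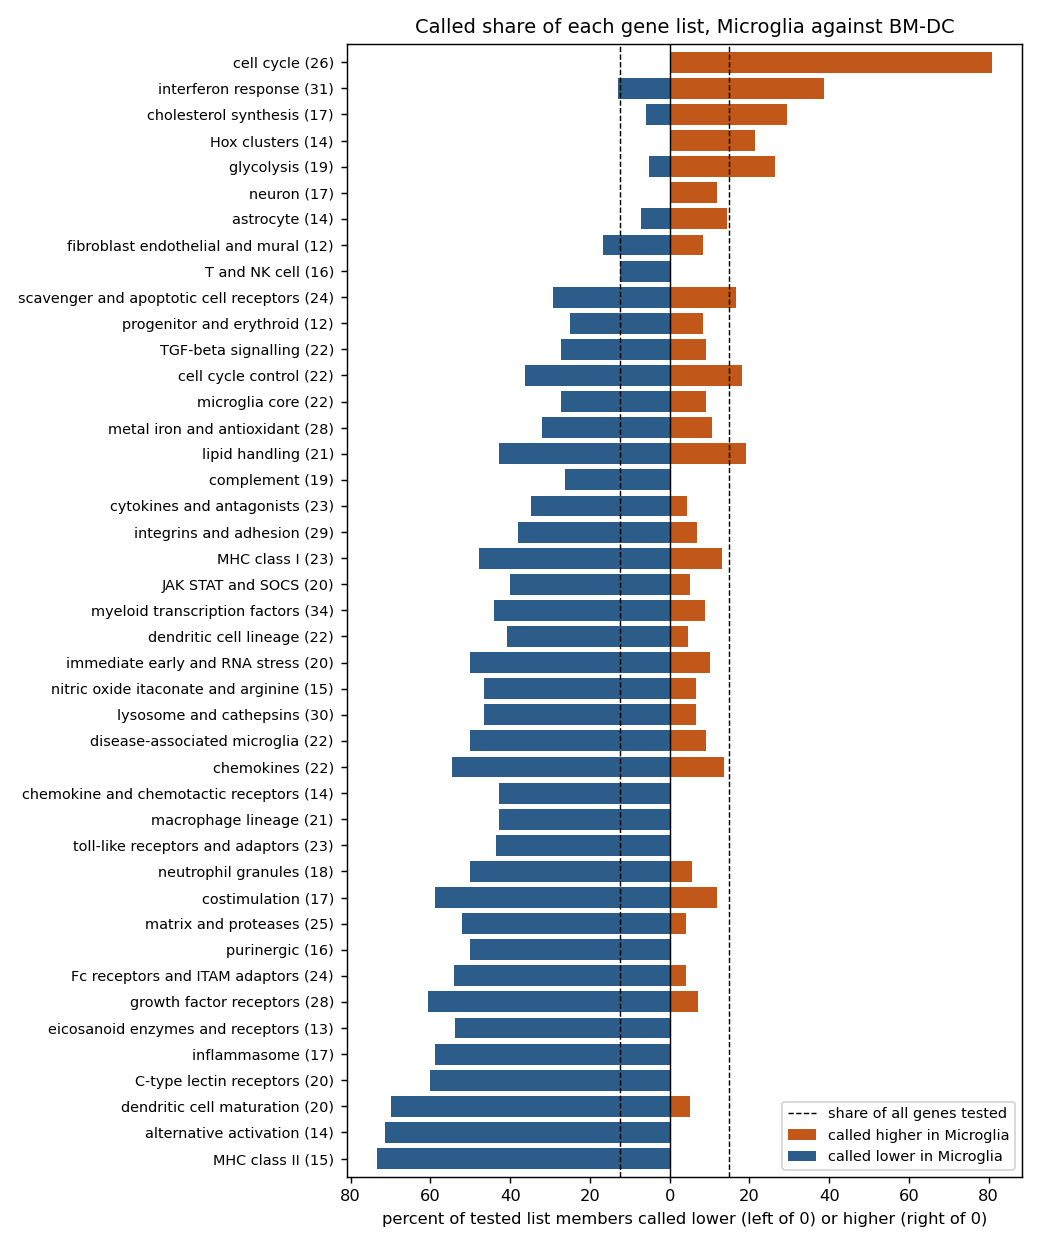
Percent of the tested members of each gene list called higher (orange, right of 0) and called lower (blue, left of 0) on the Microglia arrays, for the 43 lists with at least 12 tested members, whose number stands in brackets. Dashed lines give the shares over all 12814 genes, 14.9% higher and 12.4% lower, and the cell cycle list lies at the top and the MHC class II list at the bottom.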

How the data were processed

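The deposited table held, per the file headers, the mean bead intensity of 45281 probes on each of 27 arrays, not normalized, beside detection p-values. A deposited table of the series matrix held normalized intensity and served as an alternative. The software and genome build are not given in the sources used here. Per the labels' protocols, RNA was taken up in Trizol, cleaned with DNase I and labelled with biotin. Intensities were corrected and quantile normalized over the 27 arrays by the neqc function (limma 3.58.1, R 4.3.3, background from the detection p-values, offset 16) and taken to log2. The filter kept 25001 probes detected at p below 0.05 on 3 or more arrays, and the probe with the highest mean stood for each symbol. Gene symbols came from the platform annotation, in which 34885 probes carried 1 symbol, 18 several and 10378 none here. One limma fit with a mean for each of the 8 groups (19 residual degrees of freedom) gave the differences, with Benjamini-Hochberg adjustment over 12814 genes, and was tested on simulated data. Precision is limited by how many arrays each group has.

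The 49 gene lists hold 1159 entries, of which 925 were tested, and members, lists and tests were chosen with earlier results of these data known. Genes were named by rule: the 20 largest rises and falls among called genes whose arrays did not overlap, up to 5 called members of each list in each direction, and any member of 8 myeloid lists. Undetected markers, uncalled cell cycle, neuron, neutrophil granule and arginase genes and the families in the closing section were named after their values were seen. Of the tested genes 10314 had a promoter in the RefSeq table.

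The replicate numbers were not taken to pair the samples, since deviations from the group means of same-numbered arrays correlated at r = -0.004, -0.006 and 0.018.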

Additional observations from a re-analysis of the deposited data

How the results depend on the processing

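The counts of called genes were recomputed under 20 alternatives, and the direction of no called gene turned except for 5 genes under the mean of all probes and 2 with the 6 arrays normalized alone. The counts moved by more than 1.5 times under 3 of them. With no background correction 2035 genes were called, 1106 higher and 929 lower, and the series matrix values gave the same 2035, 1106 and 929. Both scales keep the background in every value, which lowers differences. With limma's treat, which tests against a minimum difference of 1, 2121 were called, 1161 higher and 960 lower. Leaving out each of the 6 arrays in turn gave 3440 to 3607 called genes, 1880 to 1964 higher and 1560 to 1643 lower. Median scaling called 1537 higher and 1899 lower, so that 44.7% of calls were higher, against 54.6% in the analysis reported. The replicate block on the 6 arrays called 3499 genes, 3497 of them the same with the same direction, and the chip as a random block called 3499, with 3496 the same. No chip held arrays of both groups, so the chip block could not separate chip from group. The replicate numbers were not taken to pair samples, so that block removes no known pairing. Of 290 named genes, 259 kept their direction and side of the threshold with no background correction, and 31 lost the call. Reversals among the named genes came with the mean of all probes, under which Il6ra differed by -0.20 and Marcksl1 by -1.03; the cause was not tested. Without 1 array, some genes near the 2-fold limit lost their call: Csf1r without any 1 of the arrays except Microglia 2, Il6ra without Microglia 1, BM-DC 1 or BM-DC 2, Ciita and Slc1a2 without Microglia 2, Microglia 3 or BM-DC 1, Oasl2 without Microglia 2 or BM-DC 3, Eif2ak2 without BM-DC 3 and Fcgr4 and Blnk without BM-DC 1. Aif1 gained a call without BM-DC 1, with a difference of 1.17, Elavl4 without Microglia 2 (1.09) or BM-DC 3 (1.03), and Ina without Microglia 2 (1.06), Microglia 3 (1.03) or BM-DC 2 (1.01). The list counts for MHC class II, dendritic cell maturation, cell cycle and interferon response moved by at most 1.5 times or by 1 gene under all 20. Of 98 list counts, 1 for each list and direction, 25 moved further under at least 1 setting. Among counts of falls these were the myeloid transcription factors (8 to 16), lysosome (8 to 17), integrins (7 to 12), disease-associated microglia (6 to 13), inflammasome (6 to 11), neutrophil granules (5 to 10), costimulation (5 to 11), purinergic (5 to 8), macrophage lineage (4 to 10), JAK, STAT and SOCS (4 to 8), chemotactic receptors (3 to 6), complement (2 to 6), mast cell (1 to 3) and fibroblast (0 to 2) lists. Among counts of rises they were cholesterol synthesis (3 to 6), glycolysis (3 to 5), neurons (2 to 4), scavenger receptors (2 to 4), cell cycle control (1 to 5), lipid handling (1 to 4), MHC class I (1 to 4), integrins (0 to 3), and astrocytes, plasmacytoid dendritic cells and immediate early genes (0 to 2 each). Signal near background limits the comparison: 2125 tested genes were detected on none of the 6 arrays.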

Other observations

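Further gene families were counted by the stem of their symbols, and both stems and genes were chosen after their values were seen, so the counts are descriptions. Families of nucleolar, RNA and protein handling genes were higher on the Microglia arrays. Of the Polr1 subunits of RNA polymerase I 4 of 5 tested genes were called higher, of the Nop nucleolar proteins 4 of 7, of the Exosc subunits of the RNA exosome 6 of 9, of the Nup nuclear pore proteins 11 of 16 and of the Cct chaperonin subunits 5 of 8, with none lower, beside 14.9% of all genes called higher. Polr1b had levels of 8.92, 8.97 and 8.75 on the Microglia arrays, against 5.20, 4.63 and 5.01 on the BM-DC arrays (difference 3.93 ± 0.17, limma adjusted p = 1.49e-16). Nop56, a protein of the particles that methylate ribosomal RNA, had levels of 10.05, 10.28 and 10.07 on the Microglia arrays, against 6.49, 6.16 and 5.90 on the BM-DC arrays (difference 3.95 ± 0.29, adjusted p = 9.08e-12).

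Tandem families were lower on the Microglia arrays. All 10 tested Klk1b kallikreins were called lower, all 6 tested stefins and all 3 tested Bcl2a1 genes. Klk1b11 had levels of 7.13, 7.30 and 7.48 on the Microglia arrays, against 12.45, 12.52 and 12.60 on the BM-DC arrays, and Klk1b8 had levels of 4.34, 4.58 and 4.26 on the Microglia arrays, against 9.92, 10.09 and 10.48 on the BM-DC arrays. The copies are similar in sequence, and how far their probes share signal was not tested. On the MF arrays Klk1b8 averaged 4.45 and Cstdc4 4.28, near the level of undetected probes, while Bcl2a1d averaged 10.82. In the other families counted, 1 of 2 Rhox genes was higher, 1 of 11 Serpinb genes was higher and 2 lower, 1 of 15 Tnfrsf genes was higher and 8 lower, and 2 of 11 Slc6a genes were higher and 2 lower.

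Xist, the RNA that silences an X chromosome in female cells, was also named after its values were seen. It had levels of 4.44, 4.32 and 4.30 on the Microglia arrays, against 9.17, 8.83 and 10.18 on the BM-DC arrays and was at least 26.9-fold lower, undetected on every Microglia array. Eif2s3y, a gene of the Y chromosome, had levels of 4.20, 4.31 and 4.20 on the Microglia arrays, against 4.18, 4.21 and 4.20 on the BM-DC arrays and was undetected on all 6 arrays, while the astrocyte arrays averaged 8.09.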
